A study of Mus musculus with 6 samples.

Results

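Osr2 and Tbx3 encode transcription factors whose transcripts were highest in epithelium of the proximal colon and at or near the lower limit of the values elsewhere along the colon. They were chosen for that pattern by their gene symbols, as 2 of 24346 gene entries listed in each library, so their regional levels are given here as a description, with no test. Each library holds RNA of epithelial cells from distal, middle or proximal colon. The mice were wild-type, of the inbred strain C57BL/6J, and had no treatment. The 6 libraries comprised 1 female and 1 male library from each region, so n = 2 per region. The labels give neither the age of the mice nor the number of mice per library, nor whether 1 mouse gave all regions of its sex. P-values therefore measure only how these libraries vary, and that variation may be technical.

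Osr2 (odd-skipped related 2) is a zinc-finger transcription factor, known in mouse embryos for its role in palate growth and in limiting where teeth form. Tbx3 is a T-box transcription factor that acts mostly as a repressor, and in mice it is needed in limb, mammary gland, heart and liver development. T-box proteins bind DNA through the conserved domain that gives the family its name. Factors of this kind can mark position along a tube such as the gut, where neighbouring segments of epithelium keep different expression programmes.

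Both genes have alternative coding segments, and values per gene sum over all forms, so the form present in proximal colon was not resolved. Osr2 (ENSMUSG00000022330.5) lies on the plus strand of chromosome 15, 35296098 to 35303305, and Tbx3 (ENSMUSG00000018604.18) on the plus strand of chromosome 5, 119670669 to 119684724 (mm10, GENCODE M21). In Osr2, 82 bases at chr15:35302737-35302818 are coding in Osr2-204 (936 coding bases) and lie in an intron of Osr2-201 (828 coding bases). A further 26 bases, at chr15:35302891-35302916, are coding in Osr2-204 but not in Osr2-201, and are not printed below. Splicing is known to give mouse Osr2 proteins with different numbers of zinc fingers. In Tbx3, a 60-base exon at chr5:119675243-119675302 is coding in Tbx3-201 (2223 coding bases) and absent from Tbx3-202 and Tbx3-203 (2163 coding bases each). This exon is known to add a stretch to the T-box domain. The lines give the spliced plus strand, 5′ to 3′, with the alternative segment in capitals and 15 flanking coding bases on each side in lower case.
Osr2-204: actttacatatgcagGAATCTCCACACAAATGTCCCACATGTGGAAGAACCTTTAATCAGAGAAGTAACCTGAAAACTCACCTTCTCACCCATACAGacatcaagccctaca
Tbx3-201: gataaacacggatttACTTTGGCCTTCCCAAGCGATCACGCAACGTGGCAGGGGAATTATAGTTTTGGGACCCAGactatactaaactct

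All libraries carried epithelial markers at high levels. Values are FPKM, fragments per kilobase of transcript scaled to sequencing depth, so genes of different length can be compared. Between 11170 and 11473 entries reached 1 FPKM per library. Depth, estimated from the step between low values, was 7.86 to 9.92 M fragments per library (M, 1e6). The 8 epithelial markers, among them Epcam and Krt8, summed to 10403 and 10034 FPKM in the female and male distal libraries, 8905 and 9937 FPKM in the middle and 10118 and 8690 FPKM in the proximal libraries. Limma called 0 of these 8 between distal and proximal colon at an adjusted p below 0.05, and 2, Cdh1 and Vil1, had an unadjusted p below it.

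Osr2 was an abundant transcript in proximal epithelium and a trace in the rest of the colon. It was at 0.0668 FPKM in the female and 0.253 FPKM in the male distal library, at 0.0671 FPKM in the female and 1.08 FPKM in the male middle library, and at 54.6 FPKM in the female and 118 FPKM in the male proximal library. The proximal libraries stood above all others, while the ranges of the middle and distal libraries overlapped. At the estimated depth and an assumed fragment length, the distal values correspond to about 1.01 and 3.03 fragments and the middle values to about 1.01 and 13.1 fragments, against about 744 and 1434 in the proximal libraries. Only the male middle library thus held more than a few fragments outside the proximal colon. In the male proximal library, 96.8% of all entries lay below Osr2, and 93.2% did in the female proximal library.

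Mean Osr2 levels were 0.160 ± 0.132 FPKM in distal, 0.575 ± 0.719 FPKM in middle and 86.1 ± 44.5 FPKM in proximal colon (SD, n = 2 each). On the log2(FPKM + 1) scale, which understates differences that reach values below 1 FPKM, the fitted distal minus proximal difference was -6.13 (SE 0.24), with -5.71 in females and -6.56 in males. The fitted middle minus proximal difference was -5.77 (SE 0.24), with -5.70 in females and -5.83 in males. Ordered from the most negative, these were the fifth and second values among the 11815 entries with at least 1 FPKM in at least 2 libraries. With a pseudocount of 0.1 they were -8.37 and -7.50. The fitted distal minus middle difference of -0.37 (SE 0.24) rested on the male libraries, where it was -0.73, against -0.00 in females. Without the male distal library it was 0.03, so the order of the distal and middle levels cannot be given.

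Tbx3 too was highest in proximal colon, at a lower level than Osr2. It was listed at 0 in both distal libraries, at 0 in the female and 0.425 FPKM in the male middle library, and at 4.40 FPKM in the female and 7.41 FPKM in the male proximal library. As for Osr2, both proximal libraries lay above the other 4, and the male middle library was the only other one with signal, here about 15.4 fragments. The proximal values correspond to about 180 fragments in the female and 271 in the male library. In the female proximal library 63.2% of all entries lay below Tbx3, and 69.3% did in the male proximal library. Without counts, a 0 in the files may also stand for an estimate that failed. A single fragment would have been worth 0.0220 to 0.0278 FPKM in the 3 libraries listed at 0.

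Mean Tbx3 levels were 0.212 ± 0.300 FPKM in middle and 5.90 ± 2.13 FPKM in proximal colon (SD, n = 2 each), and no fold is given against distal colon. The fitted middle minus proximal difference was -2.50 (SE 0.24) on the log2(FPKM + 1) scale, with -2.43 in females and -2.56 in males, and -4.67 with a pseudocount of 0.1. It was the 32nd most negative of the 11815 values. Per length, Osr2 was 12.4 times the level of Tbx3 in the female proximal library, 15.9 times in the male proximal library and 2.55 times in the male middle library.

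**Figure D1:**
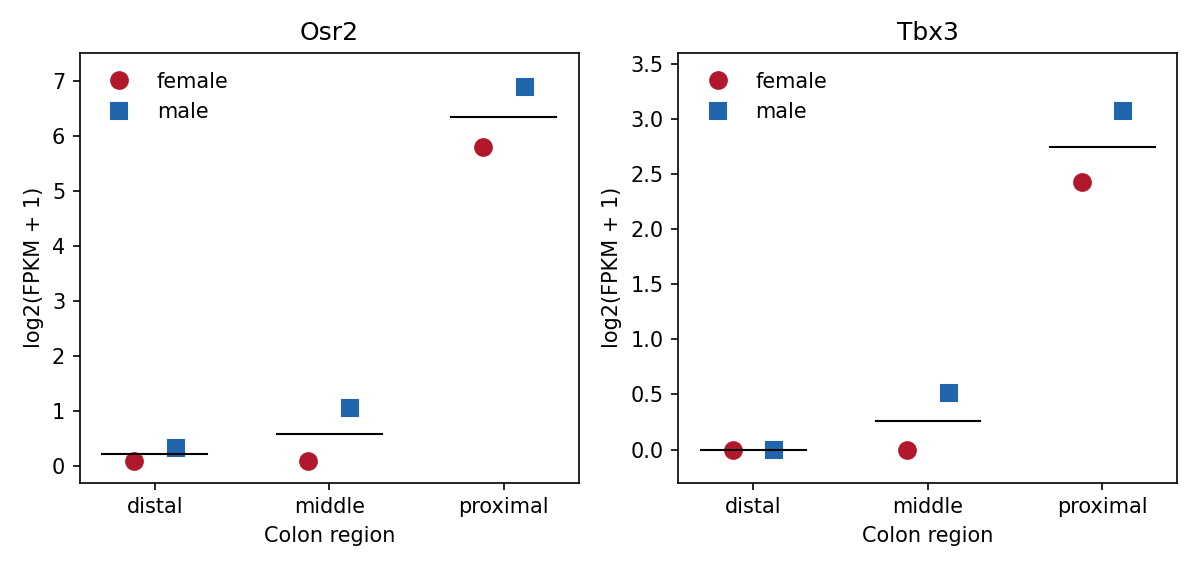
Levels of Osr2 and Tbx3 as log2(FPKM + 1) in distal, middle and proximal colon, with 1 female library (circle) and 1 male library (square) per region and the mean of the log2 values as a bar. The proximal libraries reach 5.80 and 6.89 for Osr2 and 2.43 and 3.07 for Tbx3, and the male middle library, at 1.06 and 0.51, is the next highest.

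Of the FPKM of Osr2 summed over the 6 libraries, 99.2% lay in the 2 proximal libraries, and of Tbx3 96.5%. The median over the 11815 kept entries was 33.2%. Only 4 kept entries, Osr2 included, reached the share of Osr2, and 15, or 0.127% of kept entries, reached that of Tbx3. These shares describe the pattern for which the genes were chosen. In bulk samples, fewer cells that express a gene and less of its RNA per cell cannot be told apart.

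**Figure D2:**
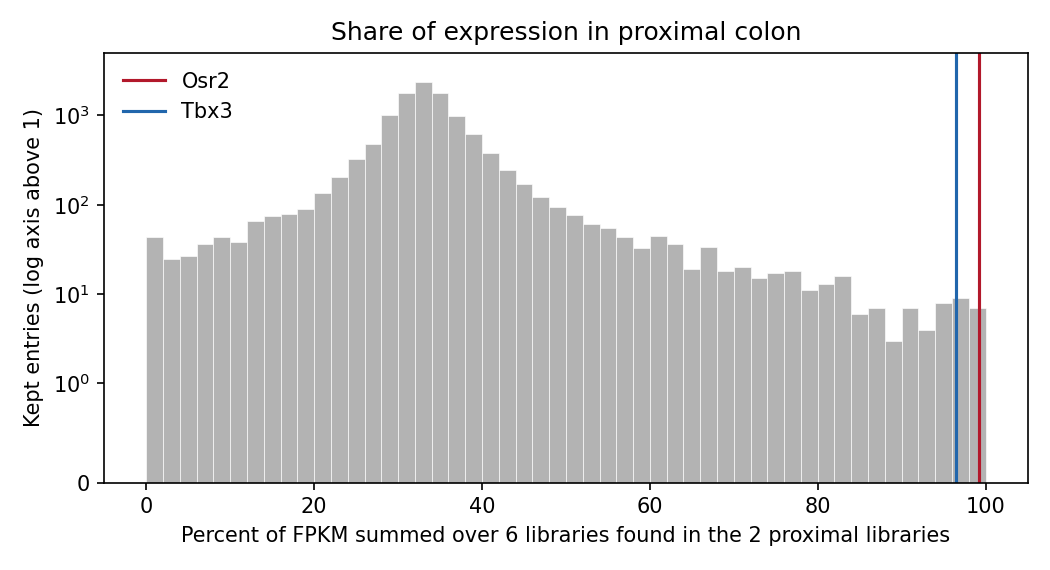
Histogram of the percent of each kept entry's summed FPKM that lay in the 2 proximal libraries (bars, 2 percentage points wide, log axis above 1), over 11815 entries. Lines mark Osr2 at 99.2% and Tbx3 at 96.5%, in the thin right tail of a distribution with a median of 33.2%.

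Sex was not used to choose the genes, so female against male was tested in the fit across all kept entries, with region as a term. Osr2 was lower in the female library of each region, by -0.23 in distal, -0.97 in middle and -1.09 in proximal colon on the log2(FPKM + 1) scale. The fitted female minus male difference was -0.76 (SE 0.19, limma unadjusted p = 0.0091, adjusted p = 0.407), so it did not pass the adjusted threshold. Tbx3 was lower in the female middle and proximal libraries, by -0.51 and -0.64, and listed at 0 in both distal libraries. Its fitted difference was -0.38 (SE 0.20, limma unadjusted p = 0.1, adjusted p = 0.527). Limma called 5 entries between the sexes, 0.0423% of those tested, with 0.00846% higher and 0.0339% lower in females. A test of whether the regional difference itself differs between the sexes has no residual degrees of freedom.

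The 2 proximal libraries also differed in other regional genes. Of 903 entries called lower in distal than in proximal colon, 713 (79.0%) were lower in the female than in the male proximal library and 778 (86.2%) in the female than in the male middle library, against 5912 and 5981 (50.6%) of all 11815 kept entries. Of 765 entries called higher in distal colon, 126 (16.5%) were lower in the female proximal library and 90 (11.8%) in the female middle library. Between the distal libraries, 631 (69.9%) of the 903 and 275 (35.9%) of the 765 were lower in the female. Of all kept entries, 6053 (51.2%) were lower there. Hoxb13, a homeobox gene of the posterior body axis, was at 36.2 FPKM in the female and 0.562 FPKM in the male proximal library, and at 527 and 457 FPKM in the female and male distal libraries; it was singled out after its values were seen. Sex and the position at which tissue was taken cannot be told apart with 1 library of each sex per region.

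Paralogs of the same families gave little signal. The files list 19 entries of the Osr and T-box families, of which 7 were at 0 in all 6 libraries, namely T, Tbr1, Tbx4, Tbx5, Tbx19, Tbx20 and Tbx22. Another 9 stayed under 1 FPKM in every library. Osr1, the closest relative of Osr2, was at 0.0703 FPKM in the male distal library and at 0 in the other libraries. Tbx2, the closest relative of Tbx3 and also a repressor, was at 0.0899 FPKM in the female and 0.151 FPKM in the male distal library, at 0.0301 FPKM in the female and 0 in the male middle library, and at 0.0333 FPKM in the female and 0.149 FPKM in the male proximal library. Both paralogs were thus under 1 FPKM in every region, including those where Osr2 and Tbx3 were low.

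Besides Osr2 and Tbx3, only Mga reached 1 FPKM. Mga, which has a T-box and also dimerises with Max, was at 4.18 and 4.43 FPKM in the female and male distal libraries, 4.59 and 4.44 FPKM in the middle and 4.64 FPKM in each proximal library, with a distal minus proximal difference of -0.09 (SE 0.13, limma adjusted p = 0.72). Tbx6, a factor of somite formation, was at 0.399 and 0.252 FPKM in the female and male distal libraries, 0.535 and 0.997 FPKM in the middle and 0.887 and 0.907 FPKM in the proximal libraries, under the minimum for testing. Tbx21 and Eomes, which lymphocytes use, peaked at 0.372 and 0.218 FPKM. Eomes, Tbx1, Tbx2, Tbx10, Tbx15 and Tbx18 stayed at or under 0.218 FPKM.

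**Figure D3:**
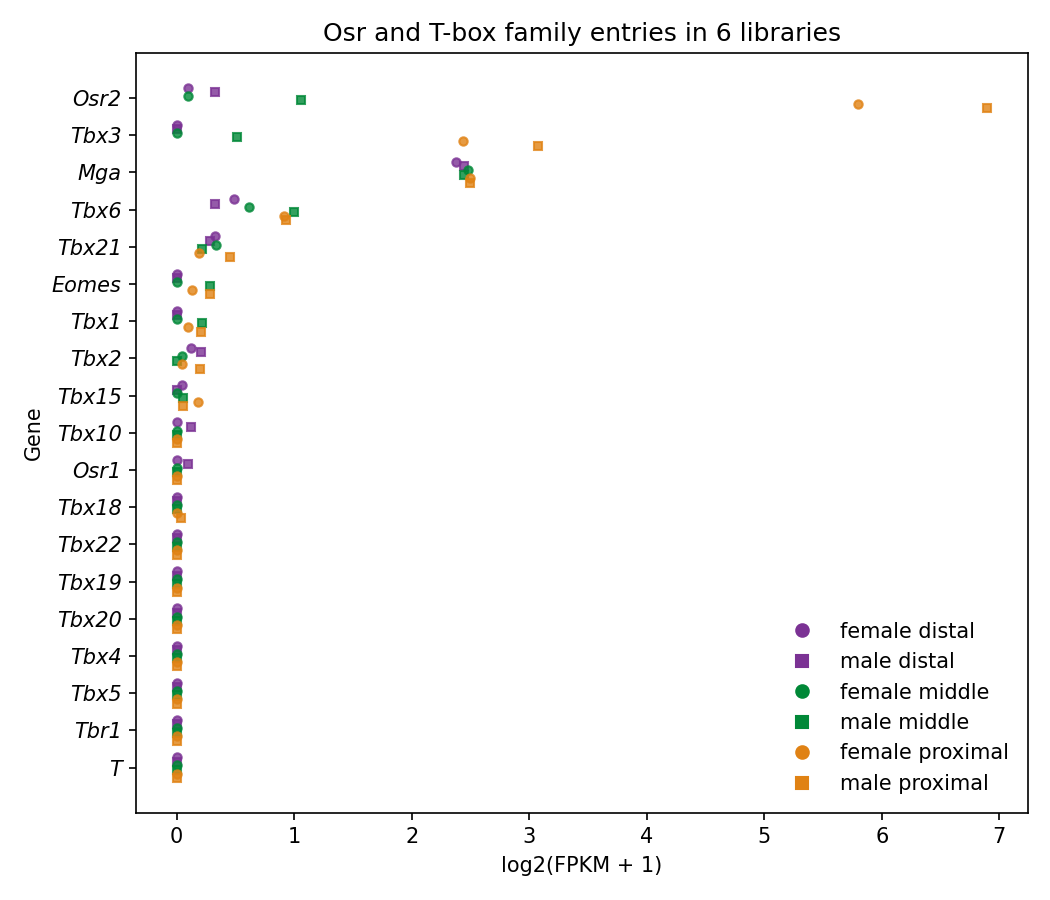
Levels of the 19 listed Osr and T-box family entries as log2(FPKM + 1), with colour for region and circle or square for the female or male library. Osr2 and Tbx3 have their highest values in proximal colon, up to 118 and 7.41 FPKM, Mga stays at 4.18 to 4.64 FPKM in all libraries, and the other 16 entries stay under 1 FPKM.

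The genes next to Osr2 and Tbx3 on their chromosomes did not pass the test between distal and proximal colon, where they were abundant enough to be tested. Around Osr2, the kinase gene Stk3 (117.2 kb away) was at 8.03 and 7.27 FPKM in the female and male distal libraries, 7.62 and 7.19 FPKM in the middle and 7.93 and 7 FPKM in the proximal libraries. Its distal minus proximal log2 difference was 0.03, with an SE of 0.11 (limma adjusted p = 0.89). On the same side, Nipal2 (616.9 kb away) had a difference of -0.42 (SE 0.15, limma adjusted p = 0.14). On the other side, Vps13b (67.9 kb away), which encodes a lipid transfer protein, had one of -0.21 (SE 0.11, limma adjusted p = 0.27). Kcns2 and Mir599 were listed at 0 in all libraries. The lincRNA BC048602, 3.7 kb from Osr2, was at 0.211 FPKM in the female proximal library and at 0 in the other 5.

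Around Tbx3, the related gene Tbx5 (147.9 kb away) and the lincRNA Tbx3os2 (0.4 kb away, on the opposite strand) were listed at 0 in all libraries, as were Gm16063 and 1700081H04Rik. Gm7538 was at 0.0849 FPKM in the female and 0.0948 FPKM in the male proximal library and at 0 elsewhere. Rbm19 (431.7 kb away), a gene of ribosome assembly, was at 5.42 and 6.30 FPKM in the female and male distal libraries and 4.35 and 4.59 FPKM in the proximal libraries, a difference of 0.32 (SE 0.13, limma adjusted p = 0.16). Tbx3os1, annotated antisense to the start of Tbx3, is not analysed here. Whether counting used strand is not given in the sources used here, so reads of that RNA and of Tbx3 cannot be told apart where they overlap.

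**Figure D4:**
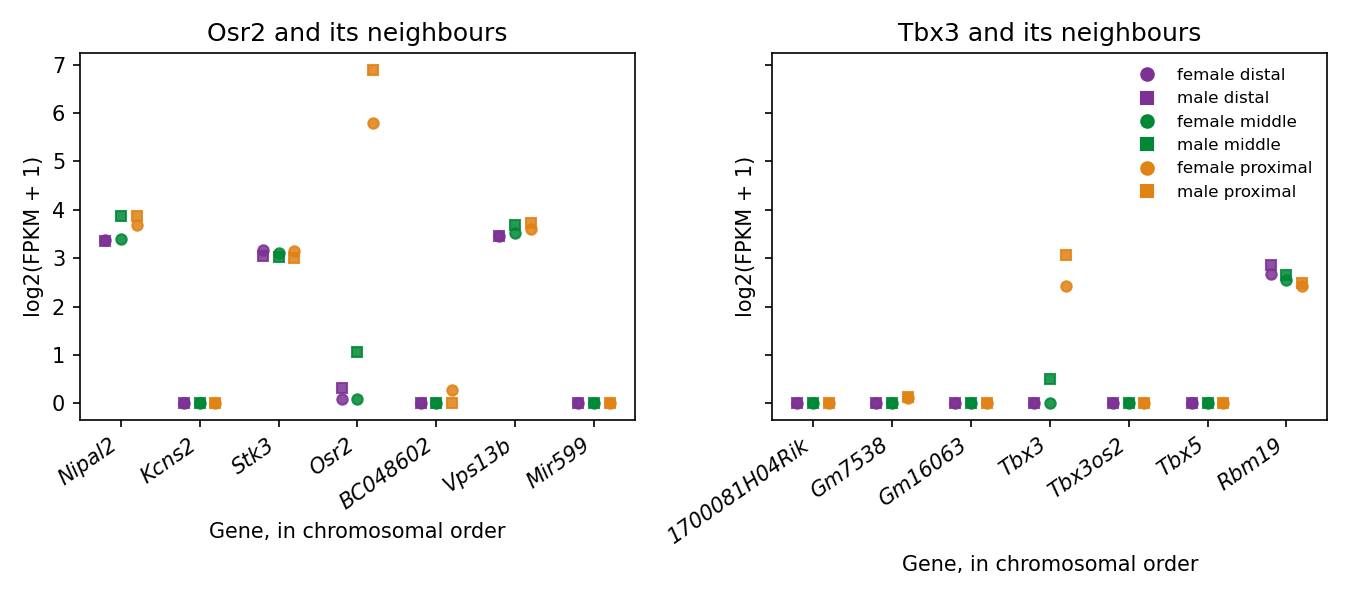
Levels as log2(FPKM + 1) of Osr2 (left) and Tbx3 (right) with the 3 nearest listed genes on either side, in chromosomal order, coloured by region with circles for female and squares for male libraries. Osr2 and Tbx3 are highest in the proximal libraries. Distal minus proximal differences of Stk3, Vps13b, Nipal2 and Rbm19 are 0.03, -0.21, -0.42 and 0.32, none of which passed the test. The proximal values of Nipal2 and Vps13b lie above, and those of Rbm19 below, their distal values. The other neighbours lie at or near 0.

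The genes whose profiles ran closest to Osr2 and Tbx3 were mainly Hoxb genes. Each gene's values were expressed as percent of its highest library, and likeness was the mean absolute difference from Osr2 or Tbx3 over the 6 libraries, among 9351 kept entries that reached 5 FPKM. The library shared by all these profiles as the highest is the male proximal one, and the ranking is a description without a test. For Osr2 the closest was Nts, the gene of the gut peptide neurotensin, at a mean difference of 0.18 percentage points. Nts was at 0 in both distal libraries, at 0 in the female and 0.129 FPKM in the male middle library, and at 5.03 FPKM in the female and 10.7 FPKM in the male proximal library. Next came Hoxb6, Hoxb8, Hoxb3, Hkdc1, Hoxb4, Hoxb7 and Cubn, at 1.5 to 2.6 percentage points. Hkdc1 encodes a hexokinase and Cubn the endocytic receptor cubilin.

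For Tbx3 the closest was Hoxb5 at 0.67 percentage points, with 0.0594 FPKM in the female and 0 in the male distal library, 0.239 and 0.816 FPKM in the middle and 8.05 and 13.3 FPKM in the proximal libraries. Hoxb3, Hoxb8, Hoxb6, Hoxb7, Nts, Osr2 and Hoxb4 followed at 2 to 3.58 percentage points. Of 11 Hoxb entries listed, 5 were among the 8 genes nearest to Osr2 and 6 among the 8 nearest to Tbx3. These came from Hoxb3 to Hoxb8, homeobox factors of the anterior and central body axis, and Hoxb13 was not among them. The lists for Osr2 and Tbx3 shared 6 genes. Osr2 and Tbx3 were 3.01 percentage points apart. The median distance over all ranked entries was 66.8 percentage points from Osr2 and 64.1 from Tbx3. Without the male proximal library, 2 of the 8 genes named for Osr2 and 3 of the 8 for Tbx3 stayed among the nearest 8, and without the female proximal library 2 and 4 did.

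**Figure D5:**
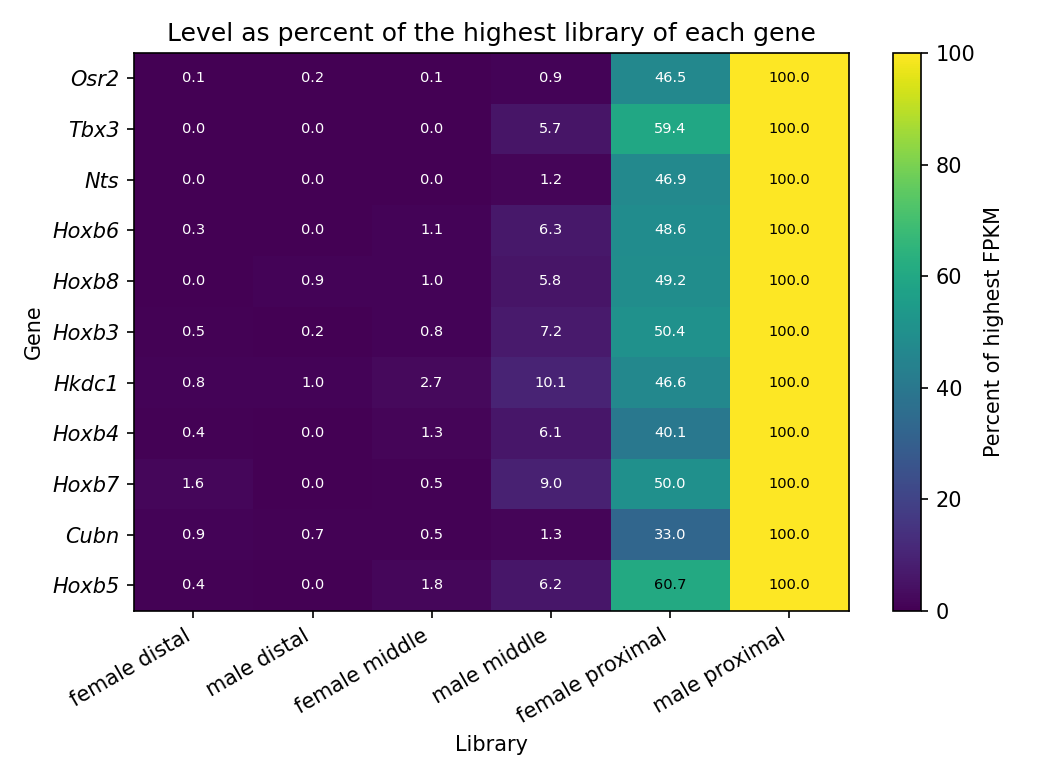
Level of each gene as percent of its own highest library (colour and printed value), for Osr2, Tbx3 and the genes nearest to them, across the 6 libraries. Every gene shown is highest in the male proximal library and at 33.0 to 60.7% of that in the female proximal library, and none exceeds 10.1% in any middle or distal library.

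Among intestinal transcription factors that were lower in distal colon, Isx and Cdx2 held larger shares of their highest level in middle colon than Osr2 or Tbx3 did. Isx, an intestine-specific homeobox gene, was at 6.8% and 29.0% of its highest library in the female and male middle libraries, and Cdx2, which sets intestinal identity, at 32.4% and 69.1%. Osr2 was at 0.1% and 0.9% there and Tbx3 at 0.0% and 5.7%. These percentages are a description, and the difference between profiles was not tested. Among 24 kept intestinal transcription factors, 3 were higher (Foxa2, Klf5 and Elf3) and 3 lower (Isx, Cdx2 and Spdef) in distal than in proximal colon. Klf5 and Elf3 fall outside the naming rule and were singled out with values in view; their calls were lost without any 1 of the 4 distal and proximal libraries (limma adjusted p 0.053 to 0.29). The median difference was 0.09, against 0.01 over all kept entries. In that comparison limma called 14.1% of all kept entries, 6.47% higher and 7.64% lower in distal colon, a background against which the counts of the lists are to be read.

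Genes that work with Osr2 in palate and tooth were mostly at low levels in this epithelium. Of 20 listed, 16 stayed under 1 FPKM in every library, and the 8 at 0 throughout were Msx1, Msx2, Pax9, Lhx6, Lhx8, Sostdc1, Dkk2 and Tfap2b. The 3 kept genes belong to Hedgehog signalling. Shh, a ligand, was at 0.0408 and 0.155 FPKM in the female and male distal libraries, 0.370 and 0.561 FPKM in the middle and 1.04 and 1.27 FPKM in the proximal libraries. It was lower in distal than in proximal colon (log2 difference -0.97, SE 0.22, limma adjusted p = 0.041). Shh reached 1 FPKM only in the proximal libraries and was kept through them, so the filter itself favoured a lower call in distal colon. That call was lost in 7 alternatives, over which its adjusted p reached 0.27. Ihh, the ligand that colonocytes make in quantity, was at 32.7 and 42.1 FPKM in the female and male distal libraries and 42.3 and 45.8 FPKM in the proximal libraries (log2 difference -0.24, SE 0.12, limma adjusted p = 0.25). Ptch1, their receptor, differed by 0.09 (SE 0.13, limma adjusted p = 0.73).

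Genes that TBX3 is known to repress in other cells did not pass the test between distal and proximal colon. Cdkn2a, a cell cycle inhibitor, was listed at 0 in all libraries. Of the 2 kept, limma called 0 at the adjusted threshold, and 1, Cdh1, had an unadjusted p under it. Cdh1, the gene of E-cadherin, was at 370 and 356 FPKM in the female and male distal libraries, 312 and 317 FPKM in the middle and 301 and 232 FPKM in the proximal libraries (log2 difference 0.46, SE 0.14, limma adjusted p = 0.097). Cdkn1a, another cell cycle inhibitor, differed by -0.32 (SE 0.24, limma adjusted p = 0.44). The median of the 2 was 0.07.

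Corepressors of the Tle and Hdac families, through which such factors can act, were present in all regions. Of 15 kept, 1 was higher and 5 were lower in distal than in proximal colon, with 9 not called and a median difference of -0.23. Hdac1, a histone deacetylase, was at 46.3 and 56.7 FPKM in the female and male distal libraries and 105 and 121 FPKM in the proximal libraries (log2 difference -1.13, SE 0.12, limma adjusted p = 0.0056). Tle3 was at 5.50 and 7.85 FPKM in the distal and 11.2 and 16.9 FPKM in the proximal libraries (-0.97, SE 0.11, limma adjusted p = 0.0072), and Tle2 had the same difference at a lower level. Tle4 was the higher one, at 30.3 and 26.2 FPKM in the distal and 13.4 and 14.4 FPKM in the proximal libraries (0.97, SE 0.12, limma adjusted p = 0.0083). The other lower genes, Tle1 and Ncor1, were named after their values were seen, and both calls were lost without either distal library. Both were also lost with no filter on low values (limma adjusted p 0.1 and 0.059) and with no variance trend (0.062 and 0.073). With sex left out of the model, Tle1, Ncor1 and Tle3 were not called (limma adjusted p 0.1, 0.12 and 0.079). Tle2 reached 1 FPKM only in the proximal libraries and the male middle library, so the filter itself favoured a lower call in distal colon. Its call was lost in 7 alternatives. Without the male distal library, Hdac1, Tle2 and Tle3 were not called (adjusted p 0.060, 0.24 and 0.076), and without the female distal library Tle2 and Tle4 were not (0.13 and 0.052).

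In the BMP pathway, which interacts with both factors in development, 14 of 20 genes were kept, of which 3 were higher and 3 lower in distal than in proximal colon (median difference -0.12). The ligand gene Bmp2 was at 31.5 and 32.2 FPKM in the female and male distal libraries, 18 and 15.2 FPKM in the middle and 5.52 and 3.19 FPKM in the proximal libraries (log2 difference 2.65, SE 0.18, limma adjusted p = 0.0023). Bmp3 ran the other way, at 6.95 and 8.34 FPKM in the distal, 13.5 and 16.6 FPKM in the middle and 26.2 and 31.6 FPKM in the proximal libraries (-1.79, SE 0.10, limma adjusted p = 0.0018). Smad4, the shared signal transducer, was higher by 0.94 and Id3, a target, lower by -0.99. Those last calls were lost without the male distal library (limma adjusted p = 0.11 and 0.062), and that of Id3 also without the female one (0.059). The remaining calls were Id1, higher, and Bmpr1a, lower, named after their values were seen, and both were lost without either distal library (limma adjusted p 0.075 to 0.21).

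Of 13 kept Wnt targets and regulators, a pathway upstream of Tbx3 in liver, 0 were higher and 2 lower (median difference -0.34). These were Cd44 and Myc, the second not called without either distal library (limma adjusted p = 0.086 and 0.065). Between middle and proximal colon, where limma called 2.45% of kept entries (1.19% higher and 1.25% lower in middle colon), Cd44, Tle3, Bmp3 and Isx were lower and Bmp2 and Foxa2 higher in middle colon. All 6 of these calls were lost without the female middle library, and all but that of Isx without the male one. That of Tle3 was also lost without either distal library and without the male proximal library. With no filter on low values all 6 were lost (limma adjusted p 0.088 to 0.097), with sex left out of the model all but Foxa2 (0.053 to 0.23), and with a pseudocount of 0.1 Isx (0.085). Between distal and middle colon, where limma called 0.499% (0.389% lower in distal colon), Bmp3, Cdx2 and Isx were lower in distal colon. Those 3 calls were lost without either distal library (limma adjusted p 0.069 to 0.33), without the male middle library (0.093 to 0.32) and, for Bmp3 and Cdx2, without the female middle library (0.15 and 0.11). They were also lost with no filter (0.1 to 0.17) and with sex left out (0.16 to 0.17), and those of Bmp3 and Cdx2 with no variance trend (0.083 and 0.078).

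Markers of other cell types were measured beside the members, since Osr2 and Tbx3 are also known from mesenchyme. The 18 markers of stroma and smooth muscle summed to 11.6 and 13.3 FPKM in the female and male distal libraries, 16.9 and 13.7 FPKM in the middle and 18.5 and 17.6 FPKM in the proximal libraries, so both proximal sums lay above the other 4. Of these, 13 stayed under 1 FPKM in every library, Foxf2, Nkx2-3 and Barx1 were at 0, and Col1a1, Pdgfra, Myh11 and Des reached at most 0.141, 0.0393, 0.0393 and 0.0352 FPKM. Of the 4 kept markers limma called 1, Tagln, lower in distal colon (log2 difference -0.61, SE 0.14, adjusted p = 0.044), a call lost in 9 alternatives (adjusted p up to 0.28). Tagln and Vim had a limma unadjusted p below 0.05. Vim was at 1.67 and 2.26 FPKM in the female and male distal libraries and 4.39 and 5.12 FPKM in the proximal libraries. In the middle libraries it was at 3.91 and 2.08 FPKM. Its distal minus proximal log2 difference was -0.96 (SE 0.27, limma adjusted p = 0.075). Pdgfrb, at 2.90 to 4.39 FPKM over all libraries, differed by 0.16 (SE 0.14), and Dcn by -0.16 (SE 0.58). Vim, Pdgfrb and Dcn fall outside the naming rule. The median of the 4 was -0.39. The part of stromal cells in the levels of Osr2 and Tbx3 was not tested.

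The sum of lymphocyte markers was highest in the proximal libraries. The 13 markers summed to 17.3 and 13.5 FPKM in the female and male distal libraries, 23.9 and 12.4 FPKM in the middle and 44.1 and 101 FPKM in the proximal libraries. Of 10 kept, 0 were higher and 4 lower in distal than in proximal colon, Gzma, Cd7, Gzmb and Cd8a, with a median difference of -1.51. Cd8a and Gzmb reached 1 FPKM only in the proximal libraries, and Gzma only in those and the male middle library. For these genes the filter itself favoured a lower call in distal colon, which limits what the count and the median show. With no filter on low values Cd7 and Gzmb were not called (limma adjusted p = 0.062 for each). Gzma, a granzyme gene, was at 0 and 0.752 FPKM in the female and male distal libraries and 4.63 and 16.4 FPKM in the proximal libraries (log2 difference -2.90, SE 0.25, limma adjusted p = 0.0036). Without the male distal library Cd7, Gzmb and Cd8a were not called (limma adjusted p = 0.14, 0.19 and 0.23), nor were they without the female distal library (0.059, 0.077 and 0.1). Gzma was also lower in middle than in proximal colon (log2 difference -1.96, SE 0.25, limma adjusted p = 0.03), a call lost without either middle library, with no filter, with sex left out and with a pseudocount of 0.1 (0.075 to 0.21). Outside proximal colon the lymphocyte sums ranged from 12.4 FPKM in the male middle library to 23.9 FPKM in the female middle library. The part of lymphocytes in the levels of Osr2 and Tbx3 was not tested.

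Among enteroendocrine markers, 2 were higher (Insl5 and Pyy) and 2 lower (Chgb and Gcg) in distal than in proximal colon of 6 kept, with a median of -1.69. In that comparison Pyy was not called with sex left out of the model (limma adjusted p = 0.14). Chgb was not called with no filter on low values (limma adjusted p = 0.065). Insl5 and Pyy were also higher in middle than in proximal colon (log2 differences 3.39 and 1.52, limma adjusted p = 0.028 and 0.025), and Gcg was lower in distal than in middle colon (-1.71, adjusted p = 0.018). With no filter on low values these 3 calls were lost (0.088 to 0.1), as they were without the female middle library (0.073 to 0.21). Those of Insl5 and Gcg were also lost without the male middle library (0.13 and 0.093), that of Gcg without either distal library (0.076 and 0.075) and those of Insl5 and Pyy with sex left out (0.11 and 0.18). Of 4 kept tuft cell markers, 2 were lower, Ltc4s and Trpm5 (median -0.92), the second lost in 8 alternatives. All 4 stayed under 1 FPKM in both distal libraries and were kept through the middle and proximal libraries. For them the filter itself favoured lower values in distal colon, which limits what the count and the median show. Without the male distal library Chgb, Pyy, Ltc4s and Cd14 were not called either (limma adjusted p = 0.15, 0.077, 0.13 and 0.073). The enteroendocrine sum was 225 and 177 FPKM in the female and male distal, 401 and 224 FPKM in the middle and 190 and 260 FPKM in the proximal libraries, and the regions overlapped. The tuft cell sum was 1.23 and 1.92 FPKM in the distal, 7.61 and 10.6 FPKM in the middle and 7.37 and 9.85 FPKM in the proximal libraries, so middle and proximal values overlapped. The parts of enteroendocrine and tuft cells in the levels of Osr2 and Tbx3 were not tested. Myeloid markers summed to 41.1 and 40.7 FPKM in the distal and 23.0 and 15.1 FPKM in the proximal libraries, and 1 of 2 kept, Cd14, was higher in distal colon by a log2 difference of 1.19. Endothelial markers summed to at most 4.25 FPKM, mesothelial markers to at most 1.98 FPKM and neuronal and glial markers to at most 1.09 FPKM. Limma called 0 of the 2, 1 and 0 kept. The kept mesothelial marker, Upk1b, had an unadjusted p below 0.05. It reached 1 FPKM only in the proximal libraries and was kept through them.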

How the data were processed

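FPKM per gene was used as deposited by the authors, 1 file per library. The submitters' processing notes name Cuffdiff 2.2.1, SAMtools 0.1.18, Bowtie2 2.2.8, TopHat2 2.1.1 and the build mm10. The sources used here do not give settings or annotation. Per the labels' protocols, a stranded mRNA kit made the libraries. A count test does not suit FPKM values.

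Entries with at least 1 FPKM in at least 2 libraries were kept, 11815 of 24346, Osr2 and Tbx3 among them. limma 3.58.1 in R 4.3.3 fitted region and sex to log2(FPKM + 1) over the 6 libraries, with a variance trend, 2 residual and 3.49 prior degrees of freedom. P-values were adjusted by the Benjamini-Hochberg method over all kept entries at a threshold of 0.05. The fit was tested on simulated data with independent noise and no sex effect. Such data lack the differences between female and male libraries described above. That test therefore does not show how the fit performs on these libraries. Sex is a term in the model, so the libraries of a sex are matched across regions.

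Depth was estimated from values under 0.2 FPKM of genes with 1 annotated transcript over 1500 bases, at an assumed fragment length of 200 bases. It gives approximate fragments only, and no counting intervals. Fragments behind Osr2 used the length of Osr2-201 (1724 bases) and those behind Tbx3 that of Tbx3-203 (4777 bases). Coordinates and sequences come from GENCODE M21, of the same build. Genes were named by a fixed rule: up to 4 called members of a list by size, the 3 nearest genes per side and the 8 nearest profiles. The members, lists and tests were chosen with earlier results of these data known, and 1 list member is not reported here. Matplotlib 3.10.9 drew the figures.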

Additional observations from a re-analysis of the deposited data

How the results depend on the processing

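Osr2 stayed lower in distal and in middle than in proximal colon, and Tbx3 lower in middle than in proximal colon, under every alternative that gave a value. A pseudocount of 0.1 moved the Osr2 differences to -8.37 (distal minus proximal) and -7.50 (middle minus proximal) and the Tbx3 middle minus proximal difference to -4.67. With each library left out in turn they ranged from -6.53 to -5.74, from -6.01 to -5.52 and from -2.69 to -2.31. The Osr2 distal minus middle difference ranged from -0.77 to 0.03, the last without the male distal library. The female minus male differences passed the threshold under no alternative, and ranged from -1.03 to -0.60 for Osr2 and from -0.57 to -0.26 for Tbx3 with single libraries left out. Tbx3 has no value at a minimum of 5 FPKM in at least 2 libraries, which it did not reach.

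The number of entries called between distal and proximal colon, 1668, ranged from 340 (without the male distal library) to 1583 with single libraries left out, and was 770 without the female distal library. For middle against proximal colon it was 289, against 4 with no filter, 187 with no variance trend, 24 with sex left out of the model and 0 to 806 with single libraries left out (0 without the female and 39 without the male middle library, 806 without the female proximal library). For distal against middle colon it was 59, against 2, 29, 17 and 0 to 406 (406 without either proximal library, 36 without the female and 1 without the male middle library, 7 without the female and 0 without the male distal library). For female against male it was 5, and 2 to 25 with single libraries left out (25 without the female and 24 without the male proximal library, 10 and 9 without the female and male distal library, 2 without the male middle library). The causes were not tested. In those fits the 1 library remaining in a region takes its variance from the other regions.

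Of 27 named list genes called between distal and proximal colon, 11 were called without the male distal library, 17 without the female one and 22 with quantile normalization, where Cd8a, Shh, Tagln, Tle2 and Trpm5 were not. The direction was reversed for 0 of the 27 under each alternative, except that a minimum of 5 FPKM left 20 of them to test. Ranked by Pearson r of log2(FPKM + 1) instead, 2 of the 8 genes nearest to Osr2 and 5 of the 8 nearest to Tbx3 were the same, and 2 to 7 and 3 to 7 with single libraries left out. The labels give no replicate numbers, and the libraries are paired across regions by sex alone, which the model holds as a term. With sex left out, distal against proximal colon had 1240 calls. Values of about 1 fragment limit what can be said of Osr2 outside proximal colon.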
